A study of Rattus norvegicus with 2 samples.

Results

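The cells described here were cochlear duct cells of Sprague-Dawley rats that carried a large amount of Otor mRNA together with Cldn5 mRNA but lacked the blood vessel genes Plvap and Cdh5. They were taken from the count matrices by a fixed rule. A cell was kept with more than 500 and fewer than 5000 genes and under 25% of its UMIs (unique molecular identifiers, each marking 1 captured mRNA molecule) on mitochondrial genes. It had to show no UMI of the division genes Top2a and Ube2c, Otor at 1% or more of its UMIs, at least 2 UMIs of Cldn5, none of Plvap or Cdh5, and at most 2 of Car3. The rule found 605 cells among 28569 barcodes, 273 in the P1 library (postnatal day 1) and 332 in the P7 library (postnatal day 7). The rule used Cldn5, Otor, Plvap, Cdh5 and Car3, and Notum, Ccn3 and Pmch were known markers of these cells when they were chosen, so the levels of all 8 genes are given as a description.

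The study profiled the cochlear duct at both ages with the 10x Chromium 3′ assay, 1 library per age, each made from the pooled cochleae of many untreated rats. By the study's methods the stria vascularis, spiral ligament and spiral ganglion were separated off by microdissection, and the deposited label of both libraries names greater epithelial ridge cells. With 1 library per age, age and library cannot be told apart and no test across animals was possible. Intervals below are exact 95% intervals and cover counting error only, and levels are given in CPM, a gene's UMIs per 1000000 UMIs of the group. A gene at 0 UMIs in the chosen cells is compatible with up to 1.67 CPM at P1 and 1.35 CPM at P7, the upper ends of these intervals.

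The lateral wall of the cochlea forms the outer boundary of the space that holds the endolymph, the potassium-rich fluid that bathes the hair cells. Its fibrocytes express otoraplin (Otor), a small secreted protein, with cochlin (Coch) and otospiralin (Otos), and recycle potassium towards the stria vascularis. Claudin-5 (Cldn5) is a tight junction protein best known from the endothelium of the blood-brain and blood-labyrinth barriers. Wnt ligands act through frizzled receptors, and cells that receive them often make secreted or membrane antagonists of the same pathway, among them the Wnt deacylase Notum.

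The sequences before the start of the 2 genes that define the cells, and of the Wnt feedback gene Nkd1, are shown because they are regulatory windows of genes described below. They are RefSeq sequences of the build GRCr8, 250 bases each and 5′ to 3′ on the strand of the gene, whereas the authors counted on rn6. Capitals mark CCAAT or its complement ATTGG and, in Nkd1, also CTTTGA, a core of the motif of Tcf and Lef factors.

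Cldn5 (chr11:95718599-95718848, minus strand): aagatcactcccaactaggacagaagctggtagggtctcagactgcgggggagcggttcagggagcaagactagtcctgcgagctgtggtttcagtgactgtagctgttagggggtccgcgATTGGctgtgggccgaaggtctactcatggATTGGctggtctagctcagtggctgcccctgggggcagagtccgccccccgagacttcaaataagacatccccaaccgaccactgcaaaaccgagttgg

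Otor (chr3:150868636-150868885, plus strand): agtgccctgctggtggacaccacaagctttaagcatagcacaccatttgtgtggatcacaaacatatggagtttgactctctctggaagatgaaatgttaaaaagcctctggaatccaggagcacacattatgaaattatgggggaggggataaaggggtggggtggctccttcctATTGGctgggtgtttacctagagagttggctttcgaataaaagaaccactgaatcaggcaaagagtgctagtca

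Nkd1 (chr19:34722847-34723096, minus strand): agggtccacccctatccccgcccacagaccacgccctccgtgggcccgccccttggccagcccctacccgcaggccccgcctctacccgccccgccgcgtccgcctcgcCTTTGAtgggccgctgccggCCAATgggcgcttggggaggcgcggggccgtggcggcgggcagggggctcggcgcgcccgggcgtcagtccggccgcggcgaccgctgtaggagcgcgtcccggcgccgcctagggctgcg

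Cldn5 held 2 matches of CCAAT, Otor 1 and Nkd1 1, and Nkd1 held 1 match of CTTTGA. On either strand, CCAAT stood in 34.0% and CTTTGA in 13.9% of the 33469 windows of this length. The longer string CAGCCAAT, which contains CCAAT, is a stretch that the windows of Cldn5 and Otor share, and it stood in 2.92% of all windows. No motif was named for it beforehand, so its presence in both windows does not show how unusual the match is. Of 18 genes looked up, 14 had a window, while Notum, Ccn3, Pmch and Rerg had none and could not be examined. CCAAT stood in the windows of 6 of the 14. CTTTGA stood in those of 5, Slc27a6, Apcdd1, Nkd1, Axin2 and Otos, of which Otos was lower in the chosen cells. A match describes letters and not a bound site. Cldn5 and Tbx1, a gene of higher level in these cells, lie on chromosome 11 with 3 protein-coding genes annotated between them in GRCr8. The levels of these 3 genes were not compared, and a link between place and level was not tested.

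The Cldn5-positive Otor-high cells made up 2.14% of the 12779 kept cells at P1 (1.89 to 2.40%) and 2.64% of the 12581 kept cells at P7 (2.37 to 2.93%). Of Otor-high cells they were 9.45% at P1 (8.41 to 10.6%) and 13.7% at P7 (12.3 to 15.1%). The P7 share of kept cells was thus higher by 0.30 on the log2 scale (0.07 to 0.54), but with a limit of 1 Cldn5 UMI in place of 2 the difference was -0.081. A chosen cell held a median of 6786 UMIs in the P1 library, and of 7586 in the P7 library. The comparison cells used below, 2249 at P1 and 1310 at P7, met the same limits but held no Cldn5 UMI, and held medians of 6426 and 7690 UMIs. Of all barcodes, 60 occurred in both libraries, 2 of them among the chosen cells at P1 and 1 at P7. Scrublet called 4.40% of the chosen cells doublets at P1 and 7.23% at P7, against 4.68% and 6.12% of all kept cells.

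Among Otor-high cells without Plvap and Cdh5, 9.83% at P1 and 15.8% at P7 held at least 2 Cldn5 UMIs. Macrophage-like and epithelial cells, taken to lack Cldn5, gave a background of free RNA. Macrophage-like cells with at least 3 UMIs of C1qa reached 2 Cldn5 UMIs in 1.00% of cells at P1 and 0.917% at P7, and Epcam-positive epithelial cells in 0.816% at P1. Cells with Otor under the limit, a mixed group that can include cells expressing Cldn5, did so in 0.801% and 0.535% of cases. The shares in Otor-high cells were above all of these.

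Cldn5 stood at 480 CPM in the chosen cells at P1 (452 to 510) and at 814 CPM at P7 (781 to 849), with a median of 3 and 5 UMIs per cell and a maximum of 24 and 35. In the cells with at least 2 UMIs of Plvap and Cdh5 together, 198 at P1 and 342 at P7, Cldn5 stood at 1701 and 1076 CPM. These levels are a description, since the rule set a minimum of Cldn5 in the chosen cells and none in the others.

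The endothelial genes named here were lower than in the Plvap or Cdh5 positive cells, a contrast that the limit on Plvap and Cdh5 conditions. Against the Cldn5-free cells, 4 genes of the list reached 10 CPM and were compared at P1 and 6 at P7. Tek at P7 was the single one past 2-fold, lower in the chosen cells. Of all genes compared, 1.12% at P1 and 2.81% at P7 were past 2-fold in either direction. Flt1, a VEGF receptor, stood at 0.442 CPM at P1 (7 UMIs) and 0.388 CPM at P7 (4 UMIs) in the Cldn5-free cells. In the chosen cells it stood at 3.17 CPM (7 UMIs) and 0.366 CPM (1 UMI), against 247 and 140 CPM in Plvap or Cdh5 positive cells. Tie1, a receptor of endothelial cells, stood at 0.452 and 0 CPM against 254 and 209 CPM, and Egfl7 at 4.52 and 7.33 CPM against 263 and 390 CPM. The transcription factor Sox17 was listed at 0.452 CPM at P1 and at 0 at P7. The 16 endothelial genes other than Emcn, Plvap and Cdh5 summed to 198 CPM in the chosen cells at P1 and 258 at P7. The same sum was 191 and 345 CPM in Cldn5-free cells and 3362 and 2917 CPM in the Plvap or Cdh5 positive cells. Emcn (endomucin), the most abundant gene of the list in the chosen cells, stood at 459 CPM at P1 and 454 at P7. Emcn was also present in Cldn5-free cells (391 and 778 CPM) and in cells with Otor under the limit (309 and 302 CPM). Cldn5 was present, and Plvap and Cdh5 were at 0, by the rule.

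**Figure D1:**
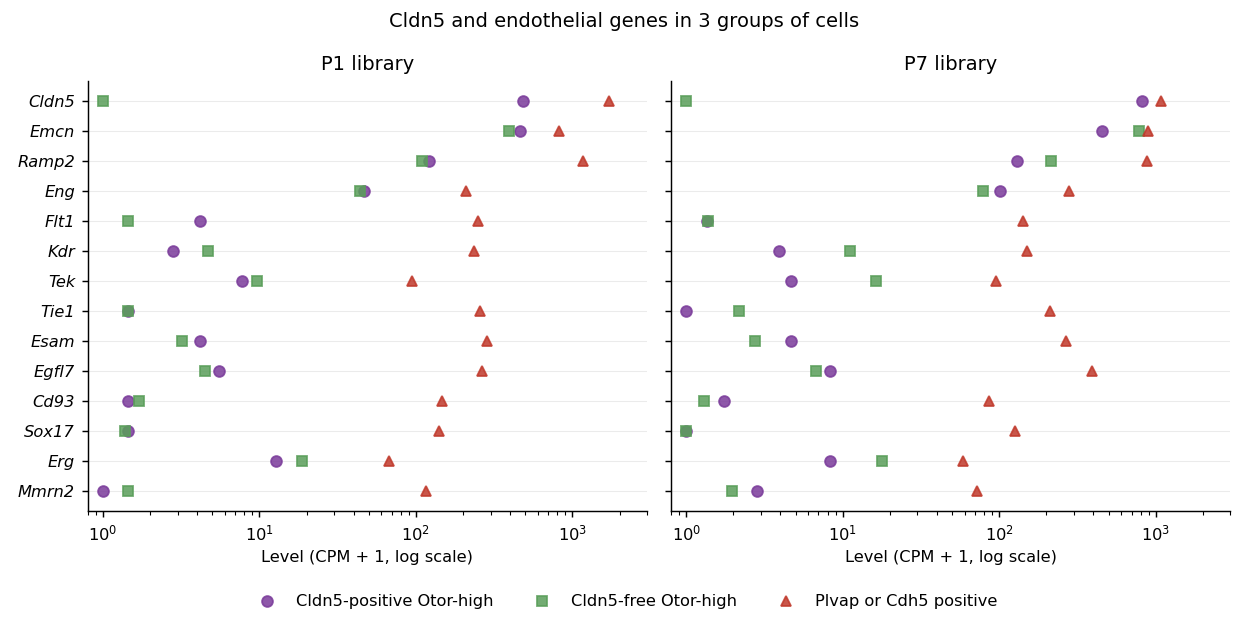
Levels of Cldn5 and 13 endothelial genes (CPM + 1, log scale) in the P1 and P7 libraries, with 1 point per group of cells. Cldn5 of the chosen cells (circles) lies at 480 and 814 CPM, below the Plvap or Cdh5 positive cells (triangles) at 1701 and 1076 CPM, whereas Tie1 and Sox17 lie at 0.452 CPM or below, close to the Cldn5-free cells (squares).

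At P7, Notum, Ccn3 and Pmch were graded with Cldn5. Near the limit, 233 Otor-high cells at P1 and 139 at P7 had exactly 1 Cldn5 UMI, and 105 and 65 chosen cells had exactly 2. At P7, Notum stood at 105 CPM in cells with 0 Cldn5 UMIs, 225 with 1, 286 with 2, 553 with 3 to 4, 591 with 5 to 9 and 716 with 10 or more. Pmch over the same P7 groups stood at 38.9, 153, 331, 706, 1023 and 1458 CPM. Ccn3 ran from 2409 CPM with 0 and 3839 with 1 Cldn5 UMI to 4064, 6482, 6884 and 8358 CPM. All 3 genes were thus higher in each P7 group than in the group before it. At P1, Notum stood at 39.5, 81.1, 77.1, 77.2, 128 and 141 CPM and Ccn3 at 2310, 4030, 4247, 3944, 4730 and 4994 CPM. Notum and Ccn3 at P1 were highest with 10 or more Cldn5 UMIs but did not rise at each step. Pmch at P1 stood at 10.9, 53.7, 70.8, 55.8, 23.9 and 29.7 CPM and showed no rise beyond 2 Cldn5 UMIs. Cells just outside the limit, with 1 Cldn5 UMI, were closer to the cells with 2 than to the Cldn5-free cells for Ccn3 and Notum at both ages and for Pmch at P1. Median depth ran from 7424 to 7690 UMIs over the P7 groups and from 6284 to 6975 at P1, apart from 12795 in the 10 P1 cells with 10 or more Cldn5 UMIs.

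**Figure D2:**
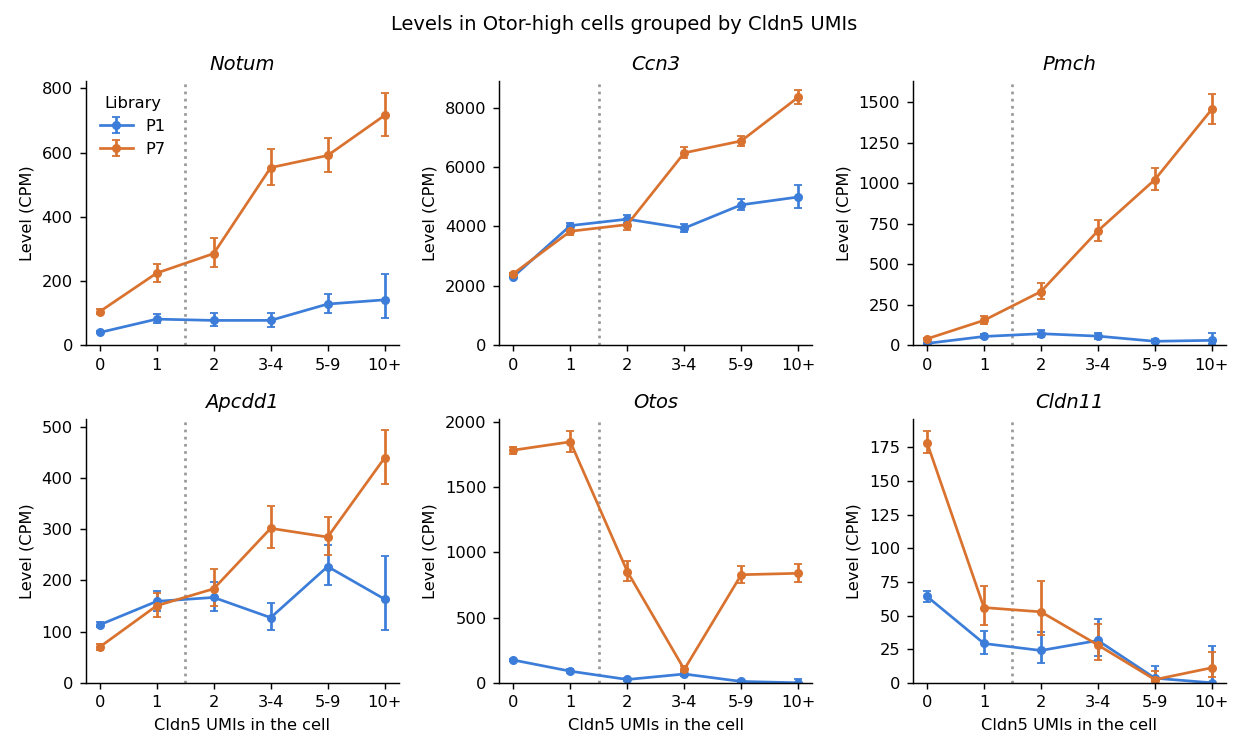
Levels (CPM) of 6 genes in Otor-high cells grouped by their Cldn5 UMIs, in the P1 and P7 libraries, with exact 95% counting intervals. The dotted line marks the limit of 2 UMIs, and at P7 Notum, Ccn3 and Pmch reach 716, 8358 and 1458 CPM in the cells with 10 or more Cldn5 UMIs while Cldn11 goes from 179 to 11.2 CPM.

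Around the limit on Otor, cells with at least 2 Cldn5 UMIs and Otor between 0.5 and 1% of UMIs numbered 34 at P1 and 25 at P7. Their Ccn3 stood at 2671 and 1917 CPM, against 4030 and 5372 CPM in the 90 and 50 cells with Otor from 1 to 1.5%. Their Pmch stood at 13.4 and 55.9 CPM, against 28.5 and 87.2 CPM just inside the limit. Pmch reached 1776 CPM in the 109 P7 cells with Otor at 3% or more. Otor itself stood at 17970 CPM in the chosen and 17220 CPM in the Cldn5-free cells at P1, and at 25470 and 18700 CPM at P7.

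Notum, which inactivates Wnt ligands outside the cell, stood at 94.6 CPM in the chosen cells at P1 (82.2 to 108) and 548 CPM at P7 (521 to 577). In the Cldn5-free cells it stood at 39.5 and 105 CPM, so that the log2 ratio, with 5 CPM added to both levels, was 1.16 at P1 and 2.34 at P7. With every cell thinned to 2000 UMIs, Notum was detected in 19.1% of the chosen cells at P1 (14.6 to 24.2%) and 52.9% at P7 (47.3 to 58.4%), leaving out 3 shallower P7 cells of this group. Unthinned, these shares were 42.1% and 80.7%. Thinned C1qa-rich cells gave 0.855% and 2.40%, and Cldn5-free Otor-high cells 7.75% and 13.1%.

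Pmch encodes the precursor of melanin-concentrating hormone, a neuropeptide best known from the hypothalamus. It stood at 51.1 CPM in the chosen cells at P1 (42.1 to 61.5) and 901 CPM at P7 (865 to 937), against 10.9 and 38.9 CPM in Cldn5-free cells. On the log2 scale the ratios were 1.82 for P1 and 4.37 for P7. Cells with Otor under the limit stood at 0.319 CPM of Pmch at P1 and 78.9 CPM at P7. These P7 cells together held 4120 Pmch UMIs, against 2459 in the chosen P7 cells. At P1, 37 of 273 chosen cells held any Pmch UMI and a single cell held 16.8% of all of them. At P7, 176 of 332 cells held a Pmch UMI, with a median of 1 and a maximum of 112 UMIs. Thinned, the P7 share was 42.0% (36.6 to 47.5%), against 3.70% of Cldn5-free cells. Epcam-positive cells at P7 gave 10.2% (5.83 to 16.3%).

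Ccn3, a secreted matricellular protein of the CCN family, was among the 15 most abundant genes of the chosen cells outside mitochondrial and ribosomal protein genes. It stood at 4325 CPM at P1 and 6549 CPM at P7, against 2310 and 2409 CPM in Cldn5-free cells, log2 ratios of 0.90 and 1.44. Ccn3 was also common elsewhere: thinned, 76.2% of Cldn5-free cells at P1 and 73.5% at P7 held it, against 93.0% and 92.1% of the chosen cells. It marked the chosen cells by amount rather than by presence.

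Notum and Pmch were detected together in part of the cells. In 329 P7 cells thinned to 2000 UMIs, 87 held both, 87 Notum alone, 51 Pmch alone and 104 neither, so that Pmch was found in 87 of the 174 cells with Notum and in 32.9% of the others. At this depth a cell without a UMI may still express the gene. At P1, 4 of 273 cells held both, 48 Notum alone and 15 Pmch alone. Split by Pmch before thinning, the 176 P7 cells with Pmch had 8275 CPM of Ccn3, 629 of Notum and 164 of Otos. The 156 P7 cells without it had 4663, 460 and 1174 CPM, and their median depth was 7519 UMIs against 7603. The chosen cells at P7 thus varied among themselves, with more Ccn3 and Notum and less Otos where Pmch was found. The Otos levels rest on few cells, since 71 of the 332 held it and a single cell held 28.7% of its UMIs.

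Among the genes compared, those with at least 10 CPM in either group, 20 of 7203 (0.278%) were at least 2-fold higher in the chosen than in the Cldn5-free cells at P1 and 61 (0.847%) at least 2-fold lower, 1.12% together. At P7, 50 of 7646 (0.654%) were higher and 165 (2.16%) lower, 2.81% together. The median log2 ratio over all genes compared was -0.0041 in the P1 and -0.052 in the P7 library. The counts include Cldn5, which the rule fixed. A ratio past 2-fold is a size and not a test. At both ages most of the genes past 2-fold were lower in the chosen cells. More genes were past 2-fold at P7 than at P1, but with Otor at 2% or more the P1 counts were 73 higher and 135 lower.

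The Wnt list held 49 genes. At P1, 22 were compared, 1 was 2-fold higher (Notum, a gene of the label) and 2 were lower (Wnt6 and Frzb). Of all genes, 0.278% were higher and 0.847% lower at P1. At P7, 25 were compared, 4 were higher (Notum, Apcdd1, Wif1 and Nkd1) and 3 were lower (Sfrp4, Wnt6 and Frzb). Beside these stood 0.654% and 2.16% of all genes, and the P7 median log2 ratio over the list was 0.00167. Apcdd1, a membrane-bound Wnt antagonist, stood at 170 CPM at P1 and 304 CPM at P7 in the chosen cells and at 113 and 70.0 CPM in Cldn5-free cells, log2 ratios of 0.57 and 2.04. The secreted antagonist Wif1 stood at 143 and 334 CPM against 99.5 and 122 CPM, 0.51 and 1.41. The intracellular antagonist Nkd1 stood at 62.9 and 121 CPM against 57.1 and 45.2 CPM, 0.13 and 1.33. Axin2, the common transcriptional target, stood at 84.6 and 80.6 CPM against 68.2 and 51.1 CPM, 0.29 and 0.61, and the factor Lef1 at 105 and 218 CPM against 98.3 and 135 CPM, 0.09 and 0.67. The higher members were all antagonists of the pathway, while 2 other secreted antagonists, Sfrp4 (6.96 against 72.9 CPM at P7) and Frzb (37.7 against 81.7 CPM), were lower. When the comparison cells were limited to those with Ccn3 at 0.1% or more of UMIs, 0 Wnt genes were 2-fold higher at P1 and 2 at P7.

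Several genes outside any list were higher at both ages. Maob, which encodes monoamine oxidase B, stood at 146 CPM at P1 and 322 CPM at P7 against 48.9 and 58.7 CPM, log2 ratios of 1.49 and 2.36. Tbx1, a T-box transcription factor needed in ear development, stood at 119 and 223 CPM against 44.6 and 66.0 CPM, 1.32 and 1.69. Rerg, a small GTPase gene, stood at 107 and 197 CPM against 50.7 and 34.6 CPM, 1.01 and 2.35. Camkmt, which methylates calmodulin, had log2 ratios of 1.27 and 1.81, and the contactin gene Cntn4 of 1.20 and 1.48. These 5 genes were thus past 2-fold in both libraries. The P1 ratio of Rerg was 0.83 with 1 Cldn5 UMI as the limit and 0.99 with no Car3 UMI. Against all other Otor-high cells it was 0.96.

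Other genes were past 2-fold in 1 library only. Slc27a6, which encodes a fatty acid transport protein, stood at 24.9 CPM against 11.6 CPM at P1 and at 78.0 CPM against 6.21 CPM at P7, log2 ratios of 0.85 and 2.89. Igf1 stood at 295 CPM against 215 CPM at P1 and at 441 CPM against 155 CPM at P7, 0.45 and 1.48. Sema3d, a guidance ligand, had log2 ratios of 0.59 and 1.65, and Cdkn1a, an inhibitor of the cell cycle, of -0.28 and 1.59. Cpe, a carboxypeptidase that trims peptide hormone precursors, stood at 755 CPM against 972 CPM at P1 and at 1167 CPM against 552 CPM at P7. Gria4, a subunit of AMPA-type glutamate receptors, stood at 210 CPM against 80.0 CPM at P1 (1.34) and at 151 CPM against 75.2 CPM at P7 (0.96). At P1 the ratios of Maob, Tbx1, Camkmt, Cntn4, Rerg, Gria4 and Notum were under 1 against comparison cells with Ccn3 at 0.1% or more, between 0.58 for Notum and 0.88 for Gria4.

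**Figure D3:**
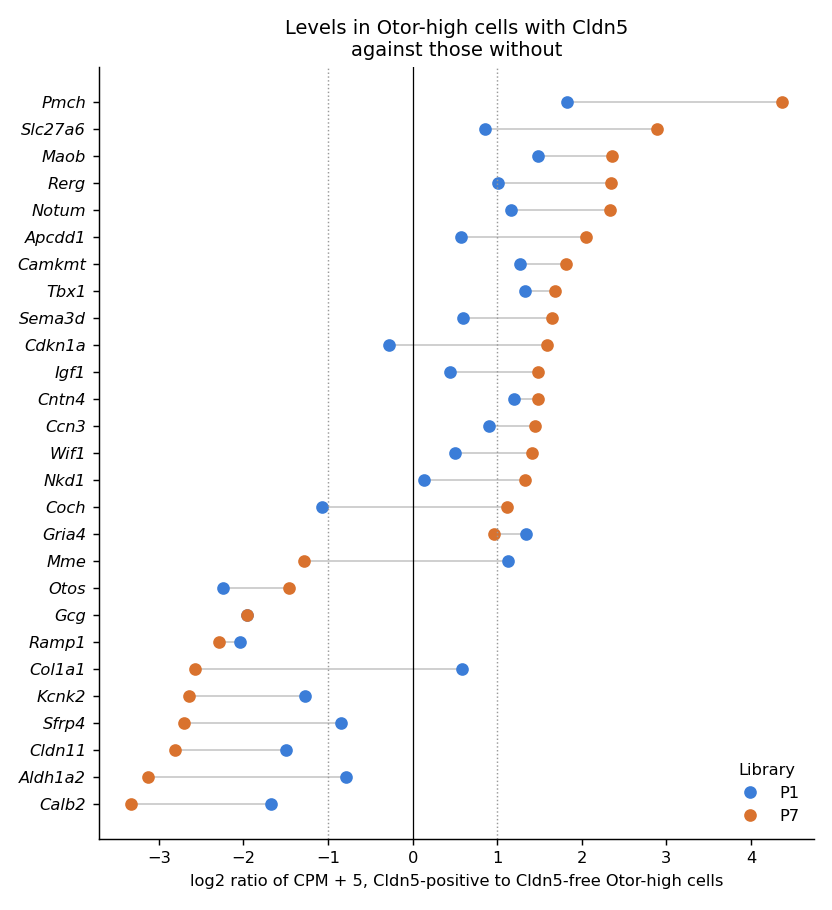
Log2 ratio of the level in Cldn5-positive to that in Cldn5-free Otor-high cells (5 CPM added) for 27 genes, with 1 point for the P1 and 1 for the P7 library and dotted lines at 2-fold. Pmch, Maob, Notum and Tbx1 lie past 2-fold on the right in both libraries (4.37, 2.36, 2.34 and 1.69 at P7), Cldn11 and Calb2 on the left (-2.81 and -3.33 at P7), and Coch and Mme change side.

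Of 23 claudins in the files, 2 reached 10 CPM and were compared at P1 and 3 at P7. Cldn5 was among them by the rule, and of the others Cldn11 was past 2-fold at both ages. Of all genes compared, 1.12% at P1 and 2.81% at P7 were past 2-fold in either direction. Cldn11, the claudin of the strial basal cell barrier, stood at 19.5 CPM in the chosen cells at P1 and 21.2 at P7, against 64.2 and 179 CPM in Cldn5-free cells, log2 ratios of -1.50 and -2.81. Cldn12, the third claudin compared at P7, stood at 12.8 against 10.6 CPM. Of the other tight junction genes, 5 were compared at P1 and 6 at P7, and 0 were past 2-fold. Among these, Tjp1, the scaffold protein ZO-1, stood at 41.6 and 48.7 CPM against 50.4 and 54.5 CPM, and the junctional adhesion gene Jam3 at 78.3 and 155 CPM against 78.9 and 146 CPM.

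Genes of other cochlear mesenchyme were lower in the chosen cells, chiefly at P7. Of the 20 genes of that list, 3 of 17 compared were 2-fold lower at P1 (Clu, Calb2 and Matn4) and 12 of 19 at P7, beside 0.847% and 2.16% of all genes compared, while Ccn3 was the member higher at P7. The P7 median log2 ratio of the list was -1.38. Calb2, which encodes calretinin, stood at 9.50 and 4.76 CPM against 41.3 and 92.9 CPM, log2 ratios of -1.67 and -3.33, but with Otor at 2% or more the P1 ratio was -0.05. Aldh1a2, which makes retinoic acid, stood at 79.6 and 19.8 CPM against 141 and 211 CPM, -0.79 and -3.12. Its P1 ratio ran from -1.29 to 0.43 over the alternatives, so that its side at P1 depended on the setting. Of interstitial collagens, 5 of 9 were lower at P7 (Col1a1, at -2.57 but -0.92 against the cells with Ccn3 at 0.1% or more, Col14a1, Col15a1, Col12a1 and Col3a1) and 3 of 9 at P1 (Col14a1, Col12a1 and Col15a1), while 0 of the 6 collagens II, IX and XI passed 2-fold at either age. The potassium channel gene Kcnk2 stood at 21.7 and 11.4 CPM against 59.8 and 97.4 CPM, and Ramp1, a partner of the CGRP receptor, at 21.3 and 42.5 CPM against 103 and 227 CPM. Of the insulin-like growth factor list at P7, Igf1 was higher and its binding proteins Igfbp2 (1937 against 4343 CPM), Igfbp5 (308 against 912 CPM) and Igfbp3 were lower. The 14 matricellular genes compared at P7 held Ccn3 as higher and 5 as lower (Spp1, Sparcl1, Tnc, Ccn2 and Postn). Of the mesenchymal transcription factors, 6 of 31 compared at P7 were lower (Osr2, Osr1, Ebf3, Prrx1, Foxd1 and Foxp2) and 0 higher.

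The fibrocyte list of 17 genes gave a mixed picture. Pou3f4 and Tbx18, transcription factors of otic mesenchyme, stood at 631 and 494 CPM in the chosen cells at P1 and 415 and 440 CPM at P7, within 2-fold of the Cldn5-free cells. Crym, a thyroid hormone binding protein, stood at 6521 CPM at P1 and 5400 CPM at P7 against 5125 and 3903 CPM. At P1, 4 of 16 genes compared were lower (Otos, Isyna1, S100b and Coch), beside 0.847% of all genes. At P7, of 17 compared, Isyna1 and Coch were higher and Otos and Atp1b1 lower, beside 0.654% and 2.16% of all genes, leaving aside Car3, which the rule used. Some calls fell short of 2-fold under an alternative. The smallest P1 log2 ratios were -0.52 for Coch, -0.65 for S100b and -0.22 for Isyna1, and at P7 Coch reached 0.65. Coch, the gene of cochlin, stood at 152 CPM against 324 CPM at P1 and at 334 CPM against 151 CPM at P7. Otos stood at 33.0 CPM against 174 CPM at P1 and at 647 CPM against 1783 CPM at P7. A single chosen cell held 57.5% of its UMIs at P1 and 28.7% at P7. Without the cell of most Otos UMIs in each group the log2 ratio was -3.11 instead of -2.24 at P1. At P7 it was -1.83 without these cells. Otos was found in 17 of 273 and 71 of 332 chosen cells. Its P7 log2 ratio was -1.46, but -0.84 with 1 Cldn5 UMI as the limit, -0.68 with Otor at 0.5% and -0.55 against comparison cells with Ccn3 at 0.1% or more. Gcg, which encodes proglucagon, stood at 4.07 CPM against 30.2 CPM at P1 and at 189 CPM against 746 CPM at P7, with 44.4% and 35.7% of its UMIs in 1 cell. Without the cell of most Gcg UMIs in each group the log2 ratio was -2.09 at P1 and -2.51 at P7. Against P7 comparison cells in the middle range of depth its log2 ratio was -0.40 instead of -1.95.

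Markers of other cell types were present at various levels. Hair cell genes summed to 165 CPM in the chosen cells at P1 and 125 CPM at P7, against 307 and 101 CPM in cells with Otor under the limit. Of these Myo6 alone held 151 and 121 CPM, and 6 of the 8 genes were at 0 at each age. The 6 strial basal cell genes summed to 216 and 220 CPM, against 262 and 415 CPM in Cldn5-free cells and 267 and 234 CPM in cells with Otor under the limit, with Nr2f2 the most abundant at P1. The 10 macrophage genes summed to 8.14 CPM in the chosen cells at P1 and 114 CPM at P7, against 68.7 and 67.0 CPM in Cldn5-free cells. At P1 the chosen cells held 3, 3, 1 and 0 UMIs of C1qa, C1qb, C1qc and Tyrobp, and at P7 30, 41, 44 and 58. A single P7 cell held 60.0% of the C1qa and 62.2% of the Lyz2 UMIs. The 8 glial genes summed to 42.1 CPM at P1 and 388 CPM at P7 against 68.7 and 319 CPM. The 12 mural cell genes summed to 57.0 and 103 CPM against 81.3 and 107 CPM, and Rgs5 held 1 and 12 UMIs. The 8 neuronal genes summed to 176 CPM at P1 and 40.7 CPM at P7 against 134 and 73.0 CPM. The 7 genes of strial marginal cells summed to 0.452 and 1.83 CPM with Kcnq1 at 0 in both libraries and the 8 epithelial genes to 5.43 and 13.6 CPM. Of the 8 genes of strial intermediate cells 4 were at 0 at each age, Kcnj10 among them. The 10 greater epithelial ridge genes summed to 52.9 and 63.4 CPM, against 434 and 408 CPM in cells with Otor under the limit. That list was compiled for this comparison, and Otor, Crym and Ccn3 were abundant in the chosen cells, so these sums do not decide between the deposited label and a place in the lateral wall. The place of the cells in the tissue was not measured. The part of these other cell types in the differences described here was not tested.

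The peptide list gave Pmch, a gene of the label, as higher and Gcg and Igf2 as lower among 11 genes compared at P1, where 0.278% of all genes were higher and 0.847% lower. Among 13 at P7, Pmch, Igf1 and Cpe were higher and Gcg, Edn3 and Pam lower, beside 0.654% and 2.16% of all genes. Of the gap junction list 4 genes were compared at P1 and 5 at P7, and 0 were past 2-fold.

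Haemoglobin genes were 2-fold higher in the chosen cells at P1 through 1 barcode. Of 1836 haemoglobin UMIs in the chosen P1 cells, 1724 lay in that barcode, and the level of 831 CPM was 51.0 CPM without it. The Cldn5-free cells stood at 193 CPM, and at 128.5 CPM without their own highest barcode, with 3 barcodes of over 100 haemoglobin UMIs. The same barcode held 546 of 576 UMIs of LOC689064 and 1439 of 1518 of LOC103694857, which the haemoglobin counts given here do not include. Without barcodes of over 100 haemoglobin UMIs the P1 log2 ratio of Hbb was -0.31 instead of 1.81.

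The chosen cells differed more from the Car3-positive Otor-high cells of P7, 353 cells with at least 3 UMIs of Car3, a carbonic anhydrase gene, and the same limits on Plvap and Cdh5. Of 7706 genes compared, 217 (2.82%) were 2-fold higher and 280 (3.63%) lower in the chosen cells, 6.45% together. Notum stood at 548 against 13.0 CPM, Ccn3 at 6549 against 842 CPM and Maob at 322 against 16.6 CPM. Pmch stood at 901 against 7.20 CPM and Cpe at 1167 against 159 CPM. Of the 25 Wnt genes compared, 11 were higher, among them Notum, Wif1, Nkd1, Apcdd1, Lef1 and Axin2, and 3 were lower (Sfrp4, Frzb and Sfrp2). Lower in the chosen cells were Igfbp2 (1937 against 10690 CPM), Cnmd, which encodes chondromodulin (206 against 2283 CPM), and Gcg (189 against 1800 CPM). Otor was similar, at 25470 against 19670 CPM, and Cldn11 stood at 21.2 against 22.2 CPM. Other genes lower than in Cldn5-free cells were also low in the Car3-positive cells, with Calb2 at 4.76 against 5.54 CPM, Aldh1a2 at 19.8 against 24.4 CPM, Kcnk2 at 11.4 against 10.8 CPM and Col1a1 at 12.5 against 16.1 CPM. Of the other mesenchyme list 3 of 19 genes were higher and 3 lower in the chosen than in the Car3-positive cells. At P1, 22 cells were Car3-positive and were not compared.

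Between the libraries, 617 of 7691 genes (8.02%) were 2-fold higher at P7 than at P1 in the chosen cells and 312 (4.06%) lower, 12.1% together. In the Cldn5-free cells the counts were 546 (6.99%) and 196 (2.51%) of 7815, 9.49% together. The median log2 ratio over all genes was 0.099 and 0.15. Higher genes made up 66.4% of the genes past 2-fold in the chosen cells, and 54.8% when levels were scaled without mitochondrial, ribosomal protein and haemoglobin genes.

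Pmch had one of the highest ratios of P7 to P1 in the chosen cells, 4.01 on the log2 scale, against 1.47 in the Cldn5-free cells. Notum had 2.47 against 1.30, Slc27a6 1.47 against -0.56, Maob 1.12 against 0.24, and Ccn3 0.60 against 0.06. Apcdd1 had 0.82 against -0.66, Nkd1 0.90 against -0.30, Cpe 0.63 against -0.81, and Igf1 0.57 against -0.46. For these 4 genes the P7 library was thus higher in the chosen and lower in the Cldn5-free cells. Of 23 Wnt genes compared, 9 were 2-fold higher at P7 (Notum, Sostdc1, Bambi, Fzd9, Wif1, Frzb, Wnt5a, Lef1 and Wnt4) and 0 lower, beside 8.02% and 4.06% of all genes. In the Cldn5-free cells 8 of 25 were higher, Wif1 and Lef1 not among them, and 1 was lower, beside 6.99% and 2.51%. With Otor at 2% or more the ratio of Wif1 in the chosen cells was 0.60 instead of 1.19. All 7 macrophage and all 6 glial genes compared were also higher at P7 in the chosen cells and all 4 neuronal genes lower. Of all genes, 8.02% were higher and 4.06% lower. With Otor at 0.5% or more the age ratios of C1qa, C1qb and C1qc were -0.69, -1.09 and -0.44. The sums of these cell types are given above, and their part in the differences was not tested.

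Other genes of high ratio in the chosen cells were also more than 2-fold higher at P7 in the Cldn5-free cells. Gcg had 4.42 in both, Otos 4.10 and 3.32, Cd9, a tetraspanin, 3.43 and 2.52, Rarres1 3.49 and 2.68, Cpz, a carboxypeptidase gene, 3.46 and 3.40, Engase 3.06 and 1.65, and Agt, the angiotensinogen gene, 3.06 and 2.52. Dlx5, a homeobox gene, held 2 UMIs in the chosen cells at P1 and 142 at P7. The connexin genes Gjb2 and Gjb6, whose channels join fibrocytes, had 1.86 and 1.95 in the chosen cells and 1.44 and 2.02 in the Cldn5-free cells. Lower at P7 in the chosen cells were Mme, which encodes neprilysin (-2.33 against 0.08), the linker histone gene Hist1h1b (-2.48 against -2.31), the immediate early gene Egr1 (-2.31 against -2.11) and Aldh1a2 (-1.77 against 0.57). Eif2s3y, a gene of the Y chromosome, had -2.28 against -1.79, and the sex of the pooled animals was not given per library in the sources used here.

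**Figure D4:**
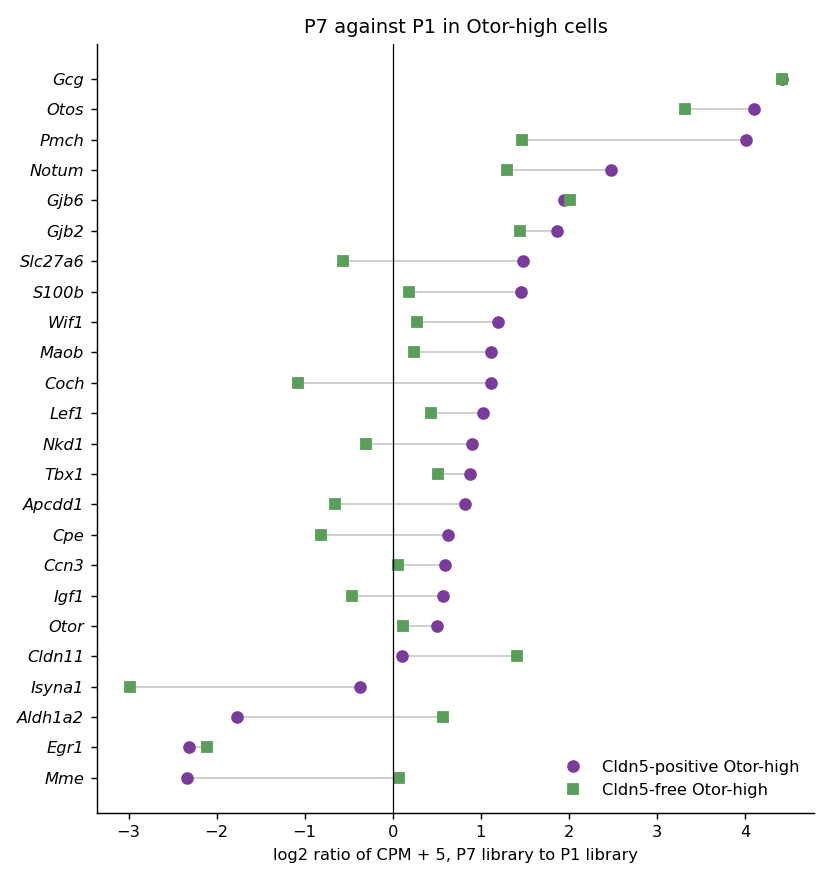
Log2 ratio of the level in the P7 library to that in the P1 library (5 CPM added) for 24 genes, in Cldn5-positive (circles) and Cldn5-free (squares) Otor-high cells. Gcg, Gjb6 and Egr1 lie close together in both groups, whereas Pmch (4.01 against 1.47), Coch (1.11 against -1.08), Isyna1 (-0.37 against -2.99) and Mme (-2.33 against 0.08) lie apart.

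The cells also lay near each other by genes the rule did not use. Each cell's 20 nearest neighbours were found in its own library on 10 principal components of 1990 variable genes, without the genes of the rule and the label. Of the neighbours of chosen cells, 18.2% at P1 and 39.9% at P7 were chosen cells, against 2.14% and 2.64% of all kept cells and 9.45% and 13.7% of Otor-high cells. Otor-high cells made up 73.5% and 72.3% of these neighbours. Otor-high cells with 1 Cldn5 UMI had 12.7% and 15.4% such neighbours, and Cldn5-free cells 5.66% and 5.24%. At P1 41.0% of the neighbours of chosen cells were Cldn5-free Otor-high cells, which made up 17.6% of kept cells, and at P7 19.0% against 10.4% of kept cells. At both ages most neighbours of the chosen cells were thus not chosen cells themselves.

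**Figure D5:**
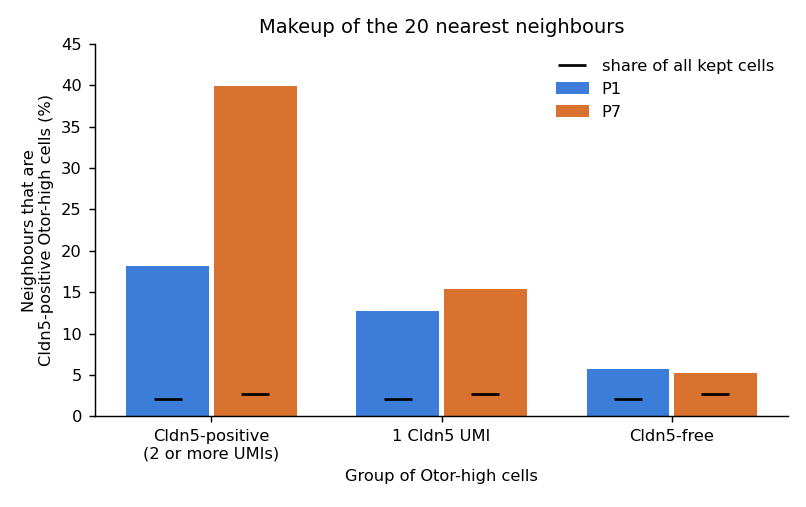
Percent of the 20 nearest neighbours that were Cldn5-positive Otor-high cells, for 3 groups of Otor-high cells in the P1 and P7 libraries, with black marks at the share of these cells among all kept cells. The bars of the chosen cells reach 18.2% and 39.9%, and those of the Cldn5-free cells 5.66% and 5.24%.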

How the data were processed

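The authors counted UMIs per gene and barcode with Cell Ranger (3.1.0 in the matrix headers) on rat genome rn6, and per the labels used Seurat 3.1.1. The deposited counts were used as they were, 32623 genes and 14068 and 14501 barcodes, with totals of 114285848 and 101264868 UMIs. Members and gene lists (37 lists) were chosen with earlier results of these data known. Counts were summed over the cells of a group, scaled to CPM and compared as log2 ratios with a pseudocount of 5 CPM. With 1 library per age no test was run. Intervals are exact Poisson (levels), conditional binomial (ratios) or Clopper-Pearson (shares) and cover counting error only. Named genes were those of the rule and label, the 15 highest and 10 lowest ratios against Cldn5-free cells among genes with at least 100 UMIs, the 10 largest age ratios each way, the 15 most abundant, and list members needed for a list's account. Genes listed by an identifier only were not described, apart from LOC689064 and LOC103694857, which are given with the haemoglobin genes. Python 3.11.15, numpy 2.4.6 and Scrublet in scanpy 1.11.5 were used. Cells were not clustered. Some genes are not reported here.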

Additional observations from a re-analysis of the deposited data

Results flagged for a closer look

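In 6 genes of the report the ratio of Cldn5-positive to Cldn5-free Otor-high cells lay on opposite sides of 0 in the P1 and P7 libraries and was past 2-fold in at least 1 of them, with at least 10 UMIs in the chosen cells of each library and counting intervals clear of 0 at both ages. The difference between the ages was not tested, since each age has 1 library. Mme had 1.13 at P1 and -1.28 at P7 on the log2 scale, with ranges over the alternatives of 0.48 to 1.57 and -1.57 to -0.62, so that neither stayed past 2-fold under all of them. Coch had -1.07 and 1.12, and Isyna1, which makes inositol phosphate, -1.38 and 1.24. Col1a1 had 0.59 and -2.57, with 40.5% of its P1 UMIs in 1 chosen cell. Without the cell of most Col1a1 UMIs in each group, an alternative chosen after seeing the data, the P1 ratio was 0.065 (21.4 against 20.2 CPM), so that the P1 difference was close to 0. Cpe had -0.36 and 1.07, and S100b -1.18 and 0.09. The P7 ratio of S100b ran from -0.38 to 0.31 over the alternatives, so that its side at P7 depended on the setting. The P1 ratios of Coch (-1.15 to -0.52), Isyna1 (-1.56 to -0.22) and Cpe (-0.48 to -0.14) kept their sign. So did their P7 ratios (0.65 to 1.48, 1.01 to 1.45 and 0.81 to 1.33), of which those of Coch and Cpe were not past 2-fold under all alternatives.

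The haemoglobin genes and 2 genes listed by a LOC identifier also changed side. Hbb had 1.81 at P1 and -0.92 at P7, and the 2 annotated copies of Hba-a2 had 1.72 and 2.24 at P1 and -1.09 and -0.56 at P7. LOC689064 had 2.71 and -0.48, and LOC103694857 2.18 and -0.78. At P1 most of these UMIs lay in the 1 barcode described above.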

How the results depend on the processing

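No paired analysis was possible because each age has 1 library, and for the same reason no replicate could be left out. Of 166 summary values recomputed under alternatives, 131 stayed within 1.5 times the reported count or within the counting interval. Of 8114 ratios of 193 genes, 6654 were scored as the same and 1427 as moved, and 33 changed sign from a 2-fold difference. Notum kept its direction under every alternative run (0.58 to 1.37 at P1, 1.55 to 2.52 at P7), as did Pmch (1.10 to 2.16, 3.57 to 4.84).

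The share of kept cells followed the limits. It was 2.48% at P1 and 3.49% at P7 with under 10% mitochondrial UMIs, 3.96% and 3.74% with 1 Cldn5 UMI, 1.32% and 2.12% with 3, 2.40% at P1 with Otor at 0.5%, 0.775% and 1.85% with Otor at 2%, and 0.639% and 1.31% with cells thinned to 2000 UMIs before the rule. The log2 ratio of the shares was -0.081 with 1 Cldn5 UMI, 0.69 with 3, 1.26 with Otor at 2% and 1.03 with thinned cells. The share of chosen neighbours at P7 was 49.7% with 30 principal components.

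Genes 2-fold higher at P1 numbered 73 with Otor at 2%, 34 with a pseudocount of 1 CPM and 9 against comparison cells with Ccn3 at 0.1% or more, an alternative chosen after seeing the data. Genes lower at P1 numbered 38 with 1 Cldn5 UMI, 135 with Otor at 2%, 100 with the pseudocount of 1, 26 with a minimum of 50 CPM and 29 against the Ccn3 cells. At P7, 80 were higher with the pseudocount of 1 and 33 with the minimum of 50 CPM, and 79 were lower with that minimum. Between ages, 506 were lower with the pseudocount of 1, 543 with the other scaling, and 126 lower and 237 higher with the minimum of 50 CPM. Higher Wnt genes at P1 numbered 0 with Otor at 0.5% (Notum at 0.94), 2 against cells of like depth and 0 against the Ccn3 cells, and at P7 2 against the Ccn3 cells. The cause was not tested.

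With Otor at 0.5%, the P1 ratios of Tyrobp, C1qa, C1qb and C1qc became 0.27, 1.10, 1.502 and 1.07, and the age ratios of C1qa, C1qb and C1qc -0.69, -1.09 and -0.44. With Otor at 2%, P1 ratios became -0.36 for LOC689064, -0.86 for LOC103694857, -0.81 for Hbb, -0.65 and -1.15 for the copies of Hba-a2, 0.13, 0.27 and 0.19 for C1qa, C1qb and C1qc, and 0.53 for Lyz2. The age ratios became 2.89, 2.78, 1.85, 0.94 and 2.25 for LOC689064, LOC103694857, Hbb and the copies of Hba-a2, and -0.023 for Cnmd. Without barcodes of over 100 haemoglobin UMIs, chosen after seeing the data, P1 ratios became -0.23 for LOC689064, -0.32 for LOC103694857, -0.31 for Hbb and -0.57 for 1 copy of Hba-a2, and age ratios 2.82, 2.72, 1.39, 0.57 and 1.85 for these genes and both copies. Lyz2 at P1 became 0.057 without Scrublet doublets and 0.0015 against the Ccn3 cells.

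Cells are not replicates, each age is 1 pool, and no spread between animals is known. Genes carried by a few cells (Otos, Gcg, haemoglobin) and genes under about 10 UMIs, such as C1qa at P1, are the least certain.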
